A study of Bos taurus with 24 samples.

Results

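Mural granulosa cells of late antral follicles (late_MGC, 5 libraries) were set against granulosa cells of secondary follicles (secondary_GC, 4 libraries), which gives the net change over follicle growth on the mural side. These 9 of the 24 bovine libraries were taken by the cell type and follicle stage of their labels, and every gene in the count table was considered. Both groups hold untreated cells as labelled, made into cDNA with the SMART-Seq v4 Ultra Low Input kit and into libraries with Nextera XT, and the other 15 libraries are mural cells of early antral follicles (early_MGC, 5) and cumulus cells of early and late antral follicles (early_CC and late_CC, 5 each). The study asked whether granulosa cells of different stages can rebuild transzonal projections, the thin cell extensions that reach the oocyte. The labels do not say whether libraries of a group came from separate animals, so p-values measure the spread between these samples, which may be technical. No animal age or breed is given in the labels.

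Granulosa cells surround the oocyte from the earliest follicle stages. In a secondary follicle they form several layers with no cavity. Once the antrum has formed, mural cells line the follicle wall and cumulus cells stay with the oocyte. Follicle-stimulating hormone acts on them through FSHR and cyclic AMP, and growing follicles make inhibins, activins and oestradiol. Anti-Müllerian hormone, Wnt, Notch and BMP signals act in small follicles.

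Library totals ran from 10001810 to 30172169 counts in secondary_GC and from 16547420 to 28757749 in late_MGC. Levels below are counts per 1000000 counts of the library (CPM). Fold changes are on the log2 scale from edgeR's quasi-likelihood test with TMM scaling, fitted to all 24 libraries, and a gene was called at a Benjamini-Hochberg adjusted p under 0.05. CPM can be compared between libraries for 1 gene, and not between genes, because they are not corrected for length. In bulk RNA, fewer cells of a type and less RNA per cell cannot be told apart.

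One late_MGC library stood apart. Libraries are numbered here in the table's column order, as names only. The mean correlation of log2 CPM with the rest of its group was 0.870 for late_MGC 3 and from 0.942 to 0.949 for the other 4. In late_MGC 3, 1193 of 14298 tested genes lay over 4-fold outside the range of the rest of its group, 684 above and 509 below, against 10 to 31 genes in each of the other 4 and 91 to 342 in each secondary_GC library. Counts and most fold changes are therefore given with all libraries and without late_MGC 3. Among the groups used for comparison late_CC 3 and early_MGC 4 also stood apart, with 546 and 460 genes outside against 24 to 71 and 40 to 87 in the other libraries of their groups.

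The labelled cell type was checked on marker lists. The 24 granulosa identity and hormone genes with a row in the table summed to 4001 CPM in late_MGC 3 and to between 9854 and 14282 CPM in the other 4 late_MGC libraries. They summed to between 4277 and 6422 CPM in secondary_GC. In early_MGC the sums ran from 3783 to 5439 CPM, a range that holds late_MGC 3. FSHR, the receptor for follicle-stimulating hormone, was at 10.6 CPM in late_MGC 3 and from 302 to 381 CPM in the other 4. The 14 stroma and fibroblast markers summed to 2769 CPM in late_MGC 3, to between 96.9 and 107 CPM in the other 4, and to between 119 and 287 CPM in secondary_GC. The 7 epithelial markers, keratins among them, summed to 4969 CPM in late_MGC 3, to between 8.10 and 22.2 CPM in the other 4, and to between 341 and 563 CPM in secondary_GC. Against the rest of its group late_MGC 3 was thus low in the granulosa sum and in FSHR, and high in the stroma and epithelial sums. Such sums follow their most abundant genes, and not every granulosa gene was low. FST and INHA stood at 83.0 and 26.3 CPM in late_MGC 3, against means of 5877 and 2263 CPM in the other 4. WT1, given below, was in the range of its group. The part of other cells in its values was not tested. Oocyte markers summed to between 21.2 and 35.2 CPM in secondary_GC and to between 2.82 and 4.31 CPM in late_MGC, and of the 5 tested OOEP and NOBOX fell.

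**Figure D1:**
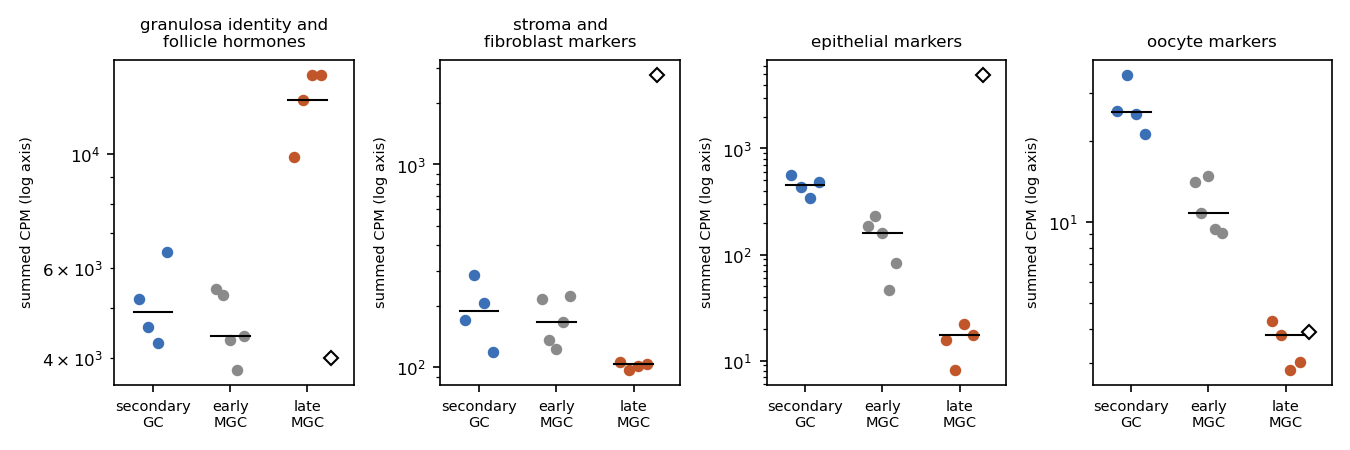
Summed CPM (log axis) of 4 marker lists in each library of secondary_GC, early_MGC and late_MGC; circles are libraries, the open diamond is late_MGC 3 and the bar is the group median. Late_MGC 3 lies at 4001 CPM for granulosa genes, below the 9854 to 14282 CPM of the other 4 late libraries, and at 2769 and 4969 CPM for stroma and epithelial genes, above every other library shown.

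Between secondary and late antral follicles 4550 of 14298 tested genes were called, 31.8% of those tested, with 2369 higher (16.6%) and 2181 lower (15.3%) in late_MGC. Without late_MGC 3 the test called 5040 of 14103 genes, 35.7%, with 2449 higher (17.4%) and 2591 lower (18.4%). In the same direction in both fits were 4072 genes, 2061 higher and 2011 lower, and no gene was called in opposite directions. With all libraries alone 478 genes were called, of which 452 were also tested without late_MGC 3 and the rest were not. Without late_MGC 3 alone 968 were called. More falls than rises were large. Of the genes called with all libraries, 907 were at least 4-fold lower and 328 at least 4-fold higher, and without late_MGC 3 these numbers were 1187 and 278.

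**Figure D2:**
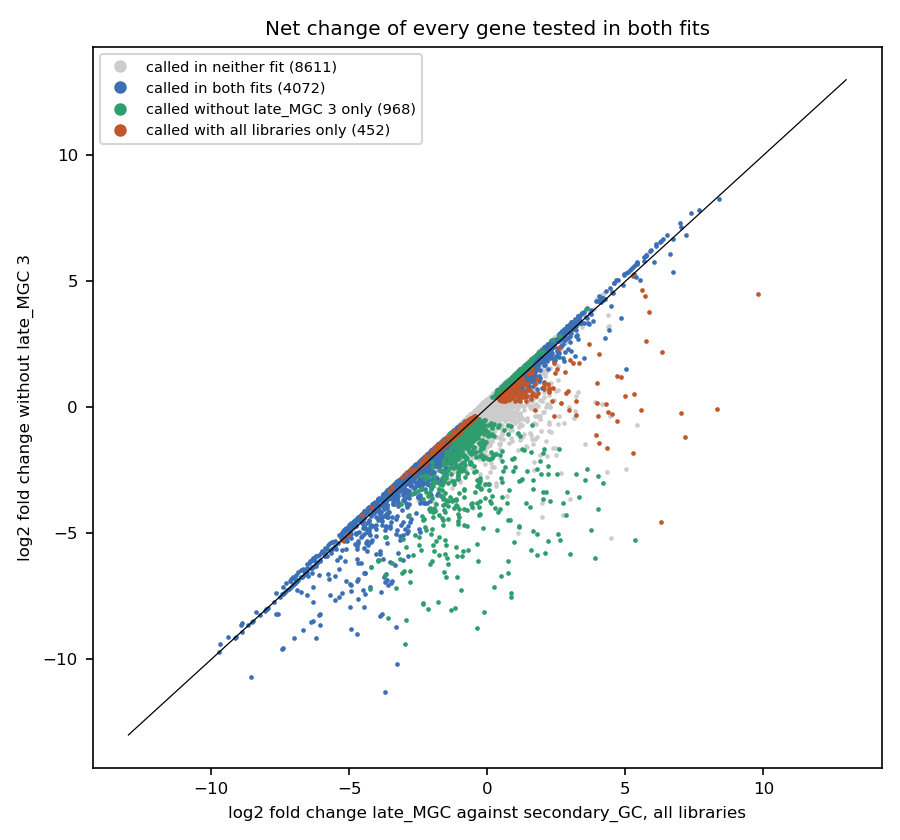
Log2 fold change of late_MGC against secondary_GC for each of the 14103 genes tested in both fits, with all libraries (x axis) and without late_MGC 3 (y axis); each point is a gene and the line marks equal values. The 4072 genes called in both fits include some above the line and some below it. Of the genes tested in both fits, 452 were called with all libraries only and 968 without late_MGC 3 only.

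The activin subunit gene INHBA rose steeply, and INHA and FST rose once late_MGC 3 was left out. INHBA, which codes for the beta A subunit of activin A and inhibin A, stood at 61.4, 88.0, 71.3 and 38.0 CPM in secondary_GC. In late_MGC it stood at 726, 1296, 2517 and 2572 CPM, and at 89.8 CPM in late_MGC 3. The groups did not overlap, although late_MGC 3 lay just above the highest secondary library. The log2 change was 4.73 (SE 0.91, edgeR adjusted p = 0.0005), and 5.04 without late_MGC 3 (adjusted p = 4.9e-05). INHBA lies on chromosome 4, from 79288772 to 79302445 on the plus strand of ARS-UCD1.2. INHA, the inhibin alpha subunit, stood at 832, 948, 507 and 1163 CPM in secondary_GC, at 1846, 2223, 2320 and 2664 CPM in late_MGC, and at 26.3 CPM in late_MGC 3. Late_MGC 3 was below every secondary library and the other 4 were above them all. INHA was not called with all libraries (log2 change 1.36, 95% interval 0.10 to 2.62, adjusted p = 0.096) and was called without late_MGC 3 (1.68, adjusted p = 1.8e-05). FST, the activin-binding follistatin, had the same layout, with 1827 to 2451 CPM in secondary_GC, 5008 to 6564 CPM in 4 late libraries and 83.0 CPM in late_MGC 3. Its log2 change was 1.44 with all libraries (adjusted p = 0.07) and 1.76 without late_MGC 3 (adjusted p = 1.5e-05). INHBB, the beta B subunit, changed by 1.77 and by 1.96 on the log2 scale in the 2 fits (adjusted p = 0.018 and 0.009), and by 1.64 without secondary_GC 4 (adjusted p = 0.059).

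Among granulosa transcription factors and receptors, NR5A2 rose and WT1 fell. NR5A2, a nuclear receptor needed for ovulation and luteal function, stood at 54.4, 145, 70.3 and 60.2 CPM in secondary_GC and at 360, 549, 592 and 467 CPM in late_MGC, with 239 CPM in late_MGC 3. All 5 late libraries lay above all 4 secondary ones, and the log2 change was 2.66 (SE 0.32, adjusted p = 1.2e-06) and 2.84 without late_MGC 3. WT1, a zinc finger factor of early granulosa cells, stood at 62.2, 75.6, 82.9 and 60.9 CPM in secondary_GC and at 3.34, 4.77, 3.32, 3.79 and 3.89 CPM in late_MGC 1 to 5. In WT1 late_MGC 3 was in the range of its group, and the log2 change was -3.97 (SE 0.31, adjusted p = 4.2e-09), and -3.89 without late_MGC 3. AMHR2, the receptor for anti-Müllerian hormone, stood at 8.14, 8.30, 6.30 and 9.64 CPM in secondary_GC and from 0.363 to 1.38 CPM in late_MGC. AMHR2 fell by 3.27 and by 3.11 on the log2 scale in the 2 fits (adjusted p = 1.2e-05 and 2.0e-05). Its ligand AMH was not called, with a log2 change of -0.23 (95% interval -1.48 to 1.01), and 0.09 (-0.52 to 0.69) without late_MGC 3. FSHR was not called either, at 258 to 392 CPM in secondary_GC, with a change of 0.11 (-0.90 to 1.11) and 0.42 (0.01 to 0.82, adjusted p = 0.099) in the 2 fits. LHCGR, the receptor for luteinizing hormone, had no count in secondary_GC and at most 0.161 CPM in late_MGC, and was not tested. In the whole list of 20 tested granulosa genes 4 rose and 4 fell, and 6 rose and 5 fell without late_MGC 3, with medians of 0.16 and 0.22. The list had 40% of its tested genes called with all libraries, against 31.8% of all tested genes. The median of all tested genes was 0.07 and 0.01.

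**Figure D3:**
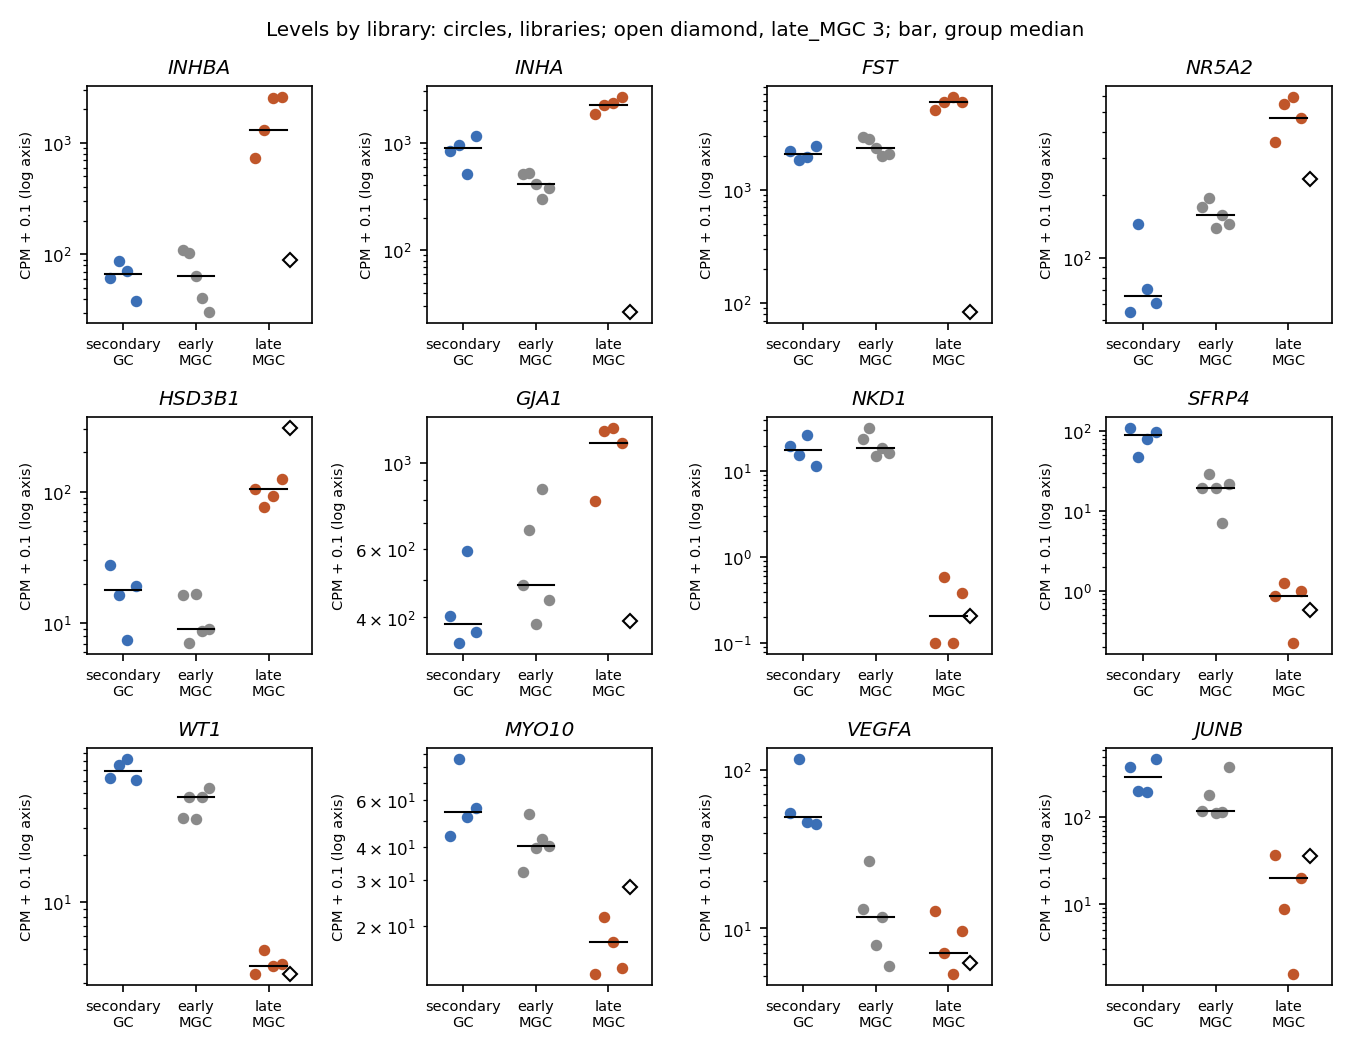
CPM plus 0.1 (log axis) of 12 genes in each library of secondary_GC, early_MGC and late_MGC; circles are libraries, the open diamond is late_MGC 3 and the bar is the group median. For NR5A2, WT1, NKD1, SFRP4, MYO10, VEGFA and JUNB late_MGC 3 lies on the same side of secondary_GC as the other late libraries, while for INHA and FST it lies below both groups.

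Steroid synthesis genes split by whether late_MGC 3 decided them. HSD3B1, which converts pregnenolone to progesterone, stood at 27.4, 16.4, 7.37 and 19.1 CPM in secondary_GC and at 104, 76.0, 93.4 and 126 CPM in late_MGC, with 306 CPM in late_MGC 3. The groups did not overlap, and HSD3B1 rose by 3.23 (SE 0.52) on the log2 scale, or 2.82 without late_MGC 3 (adjusted p = 6.5e-05 and 8.0e-05). CYP19A1, the aromatase that makes oestradiol, stood at 5.17 to 8.80 CPM in secondary_GC, at 15.9, 26.6, 28.9 and 29 CPM in late_MGC and at 0.107 CPM in late_MGC 3. CYP19A1 was called without late_MGC 3 (log2 change 2.21, adjusted p = 0.00026) and not with it (1.89, adjusted p = 0.051). STAR, which carries cholesterol into mitochondria, stood at 123 CPM in late_MGC 3 against 1.74 to 4.71 CPM in the other 4 and 2.48 to 3.95 CPM in secondary_GC. Its log2 change of 3.23 (adjusted p = 0.0091) became 0.26 without late_MGC 3 (adjusted p = 0.57). CYP11A1, the side-chain cleavage enzyme, changed by 1.29 (adjusted p = 0.021) with all libraries. Without late_MGC 3 it changed by 0.94 (adjusted p = 0.064), and without secondary_GC 3 or 4 by 1.2 and 1.08 (adjusted p = 0.057 and 0.077). Of 15 tested genes of the list 5 rose with all libraries, and 5 rose and 1 fell, TSPO, without late_MGC 3. The shares called higher among all tested genes were 16.6% and 17.4% in the 2 fits. For the falls, edgeR, DESeq2 and limma-voom each called 0 with all libraries, and 1 gene was lower at an unadjusted p under 0.05 in each.

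Cholesterol genes moved both ways. Of 29 tested, 7 rose and 5 fell, and 10 rose and 6 fell without late_MGC 3. The share called with all libraries was 41.4%, against 31.8% of all tested genes. LSS, which closes the sterol rings, rose by 1.65 and 1.93 in the 2 fits. SOAT1, which esterifies cholesterol for storage, stood at 363 to 872 CPM in secondary_GC and at 165, 180, 172 and 162 CPM in late_MGC, with 62.3 CPM in late_MGC 3. SOAT1 fell by 1.73 and by 1.52 on the log2 scale.

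Wnt genes gave some of the deepest falls. NKD1, an inhibitor and a target of Wnt signalling, stood at 19.7, 15.6, 26.4 and 11.4 CPM in secondary_GC and from 0 to 0.483 CPM in late_MGC, with 0.107 CPM in late_MGC 3. NKD1 fell by 6.52 (SE 0.59) and by 6.39 without late_MGC 3 (adjusted p = 3.8e-08 and 2.3e-08). SFRP4, a secreted Wnt-binding protein, stood at 47.2 to 109 CPM in secondary_GC and at 0.120 to 1.15 CPM in late_MGC, a log2 change of -6.64 (adjusted p = 1.6e-08), and -6.51 without late_MGC 3. The ligand gene WNT6 stood at 78.1 to 112 CPM and at 0.321 to 4.65 CPM, a change of -5.10 (adjusted p = 3.2e-07), and -4.82 without late_MGC 3. The feedback gene AXIN2 fell by 2.99 and by 2.78, and DKK3, of the Dickkopf family, rose by 3.83 and by 3.42 without late_MGC 3. Each of these genes was called in both fits, which follows in part from naming list members by the size of their called change. In each, late_MGC lay outside the range of secondary_GC, and the share of all tested genes with this layout was not counted. Among all tested genes 15.3% were called lower and 16.6% higher, and 18.4% and 17.4% without late_MGC 3. Of 26 tested Wnt genes 10 fell and 3 rose, and 9 fell and 3 rose without late_MGC 3, with medians of -0.63 and -0.48.

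In the Notch list 3 of 12 tested genes fell and 2 rose, and 5 fell and 1 rose without late_MGC 3. Of its tested genes 41.7% were called with all libraries, against 31.8% of all tested genes, where 16.6% were higher and 15.3% lower. HEYL, a Notch target, stood at 18.3 to 32.9 CPM in secondary_GC, at 0.190 to 0.361 CPM in 4 late libraries and at 2.84 CPM in late_MGC 3. HEYL fell by 4.71 and by 6.04 on the log2 scale, and the ligand gene DLL4 fell by 2.98 and by 2.67. NOTCH2, a receptor, changed by 1.07 and 1.08 (adjusted p = 0.019 in both fits), and was not called without secondary_GC 1 or 4 (0.95 and 0.97, adjusted p = 0.063 and 0.062). JAG1, a ligand gene, owed its call to late_MGC 3, where it stood at 74.2 CPM against 0 to 0.483 CPM in the other 4; the change was 4.34 (adjusted p = 0.038) and -1.61 without it (adjusted p = 0.16).

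Of 22 tested BMP and TGF-beta genes 5 rose and 3 fell, and 5 rose and 5 fell without late_MGC 3. The medians were 0.49 and 0.22. With all libraries 36.4% of those tested were called, against 31.8% of all tested genes. The called genes described next are among the falls. ID1, a direct BMP target, stood at 88.4, 78.5, 83.2 and 48.3 CPM in secondary_GC and at 25.7, 3.81, 1.56 and 3.61 CPM in late_MGC, with 15.3 CPM in late_MGC 3. ID1 fell by 2.61 and by 2.73, and the ligand gene TGFB3 by 3.28 and by 3.57. GREM1, a BMP antagonist, was not called, at -0.08 (95% interval -0.57 to 0.41) and 0.06 (-0.41 to 0.53).

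Genes of actin protrusions are of interest here because transzonal projections are built on them. MYO10, the unconventional myosin at filopodia tips, stood at 43.8, 86.1, 51.9 and 56.1 CPM in secondary_GC and at 13, 21.5, 17.2 and 13.8 CPM in late_MGC, with 28.1 CPM in late_MGC 3. The groups did not overlap, and MYO10 fell by 1.46 (SE 0.27) and by 1.60 without late_MGC 3 (adjusted p = 0.0002 and 6.7e-05). FSCN1, the actin-bundling fascin, stood at 9.28 to 13.8 CPM in secondary_GC, at 0.120 to 1.08 CPM in 4 late libraries and at 30.2 CPM in late_MGC 3. FSCN1 was called only without late_MGC 3, at -4.09 (adjusted p = 2.9e-06) against -0.73 (adjusted p = 0.58). DAAM1, a formin that extends actin filaments, was not called, at 0.47 (-0.17 to 1.11) and 0.01 (-0.51 to 0.52). ACTN4, an actin cross-linker, fell by 1.60 and by 1.94, and ARPC3, a subunit of the Arp2/3 complex, rose by 1.28 and 1.14. Of 30 tested genes 8 rose and 3 fell with all libraries, and 6 rose and 6 fell without late_MGC 3, with medians of 0.34 and 0.03. The 36.7% called with all libraries was near the 31.8% of all tested genes, where 16.6% were higher and 15.3% lower.

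Gap junctions pass small molecules between granulosa cells and to the oocyte. Of 17 tested genes of gap and adherens junctions 5 rose and 4 fell, and 4 rose and 5 fell without late_MGC 3. The share called with all libraries was 52.9%, against 31.8% of all tested genes. The falls numbered 1 without secondary_GC 2 and 2 without secondary_GC 4. GJA1, the main granulosa connexin, stood at 403, 343, 592 and 367 CPM in secondary_GC and at 799, 1207, 1228 and 1120 CPM in late_MGC, with 392 CPM in late_MGC 3. GJA1 rose by 1.40 and by 1.61 on the log2 scale (adjusted p = 0.0013 and 3.7e-05). GJA4, the connexin of junctions with the oocyte, stood at 4.6 to 17.9 CPM in secondary_GC, at 0.0949 to 0.361 CPM in 4 late libraries and at 11.5 CPM in late_MGC 3, and was called only without it (-5.46, adjusted p = 3.2e-06, against -1.97, adjusted p = 0.13). CDH1, E-cadherin, was called only with late_MGC 3, where it stood at 181 CPM against 6.74 to 9.67 CPM in the other 4. CDH2, N-cadherin, was not called in either fit, at 0.37 (-0.18 to 0.92) and 0.14 (-0.37 to 0.65).

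Of 23 tested glycolysis genes 10 fell, and 13 fell without late_MGC 3, with medians of -0.83 and -0.99. Over all tested genes 15.3% and 18.4% were called lower. The other 13 and 10 glycolysis genes were not called. With all libraries edgeR, DESeq2 and limma-voom each called 0 rises, with 0 higher at an unadjusted p under 0.05. HK2, a hexokinase, stood at 10.8, 11.1, 6.23 and 11.8 CPM in secondary_GC and from 2.56 to 3.05 CPM in late_MGC. HK2 fell by 1.58 and by 1.57, and PDK1, which holds pyruvate back from mitochondria, by 1.43 and by 1.41. Hypoxia-response genes outside glycolysis fell in 8 of 17 and rose in 2 of 17, and fell in 11 and rose in 1 without late_MGC 3. VEGFA, the angiogenic growth factor, stood at 53.5, 117, 46.9 and 45.2 CPM in secondary_GC and at 12.7, 6.95, 5.95, 5.05 and 9.49 CPM in late_MGC 1 to 5. VEGFA fell by 2.75 and by 2.63 on the log2 scale, and CA9, a carbonic anhydrase, by 2.96 and by 2.64. HIF1A, which codes for the oxygen-regulated subunit of the hypoxia factor, rose by 0.82 and 0.98 (adjusted p = 0.0080 and 0.00058).

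Immediate early genes, which cells switch on within minutes of a stimulus, fell in 11 of 26, and in 17 without late_MGC 3, with medians of -1.74 and -2.45. The shares called lower among all tested genes were 15.3% and 18.4%. With all libraries edgeR, DESeq2 and limma-voom called 0 rises, and 1, 0 and 0 genes were higher at an unadjusted p under 0.05. JUNB stood at 377, 202, 193 and 472 CPM in secondary_GC and at 36.4, 8.70, 1.44 and 19.9 CPM in late_MGC, with 36.0 CPM in late_MGC 3. JUNB fell by 3.65 and by 3.86, NR4A1 by 3.84 and by 4.15 and ZFP36, which destabilises mRNA, by 3.42 and by 3.69. Handling of the cells before lysis is not described in the labels, and its part in these values was not tested.

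Cell cycle genes depended on late_MGC 3 in number. With all libraries 5 of 32 rose, and without it 15 of 32 rose, with medians of 0.47 and 0.71. Over all tested genes 16.6% and 17.4% were called higher, so the 5 of 32 was no larger a share than among all genes. Leaving out late_MGC 4 or secondary_GC 2 left 1 rise, leaving out late_MGC 1, late_MGC 5 or secondary_GC 4 left 2, and leaving out secondary_GC 1 left 3. EdgeR called 0 falls in both fits, with 0 and 1 lower at an unadjusted p under 0.05, and DESeq2 and limma-voom called 0 falls with all libraries. Limma-voom called 2 rises with all libraries. TTK, a spindle checkpoint kinase, stood at 16.7, 9.10, 15.8 and 9.15 CPM in secondary_GC and at 27.9, 34.3, 39.0 and 30.4 CPM in late_MGC, with 12.6 CPM in late_MGC 3. TTK rose by 1.44 and by 1.65. MKI67 and TOP2A, markers of dividing cells, were not called with all libraries (0.69 and 0.74) and were called without late_MGC 3 (0.96 and 1.01, adjusted p = 0.021 and 0.0042).

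Chaperone genes rose in 9 of 18 and fell in 2, and rose in 8 and fell in 2 without late_MGC 3. The shares of all tested genes were 16.6% higher and 15.3% lower, and 17.4% and 18.4% without late_MGC 3. HSPA2 stood at 2.41 to 3.55 CPM in secondary_GC and at 14.5 to 19 CPM in 4 late libraries, with 8.20 CPM in late_MGC 3, and rose by 2.53 and by 2.70. HSPA5, the chaperone of the endoplasmic reticulum, stood at 4960, 5253, 3668 and 8533 CPM in secondary_GC and at 1341, 1068, 828 and 1126 CPM in late_MGC, with 1899 CPM in late_MGC 3. HSPA5 fell by 1.92 and by 2.06. In the insulin-like growth factor system 2 of 12 tested genes rose and 2 fell, and 2 of 11 rose and 4 fell without late_MGC 3. With all libraries 33.3% of this list were called, near the 31.8% of all tested genes. IGF1R, the receptor for IGF1, rose by 2.03 and 2.09. Of the binding protein genes IGFBP4 rose, by 2.38 and by 2.67 (adjusted p = 0.04 and 0.015), while IGFBP6 and IGFBP7 fell by 3.09 and 1.25, or by 4.08 and 1.73 without late_MGC 3.

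Of 21 basement membrane genes 3 fell with all libraries, no larger a share than the 15.3% among all tested genes. Without late_MGC 3 9 fell and 1, VCAN, rose, and without late_MGC 2 or secondary_GC 1 6 and 5 fell. With all libraries edgeR, DESeq2 and limma-voom called 0 rises, and 1, 1 and 0 genes were higher at an unadjusted p under 0.05. COL18A1, a collagen of basement membranes, stood at 93.2 to 209 CPM in secondary_GC, at 5.88, 19.8, 8.35 and 8.68 CPM in late_MGC and at 72.9 CPM in late_MGC 3. COL18A1 fell by 2.45 and by 3.47, and AGRN, a heparan sulphate proteoglycan, by 2.45 and by 3.56.

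The remaining pathway lists moved both ways. With all libraries 21.7% of cyclic AMP and cyclic GMP genes, 33.3% of cumulus expansion genes and 26.7% of YAP genes were called. These shares were near or under the 31.8% of all tested genes, and the apoptosis and p53 list had 52.2%. In cyclic AMP and cyclic GMP signalling 3 of 23 rose and 2 fell, and 4 of 22 rose and 2 fell without late_MGC 3. PRKAR1B, a regulatory subunit of protein kinase A, stood at 1.8 to 6.51 CPM in secondary_GC and at 0 to 0.121 CPM in late_MGC, and fell by 5.08 and by 5.16. In the apoptosis and p53 list 8 of 23 fell and 4 rose, and 9 fell and 4 rose without late_MGC 3. MCL1, a survival protein of the BCL2 family, stood at 342 to 684 CPM in secondary_GC, at 68.4 to 88.6 CPM in 4 late libraries and at 331 CPM in late_MGC 3, and fell by 1.63 and by 2.23. SESN2, a stress-induced sestrin, fell by 2.58 and by 2.59. Among genes of cumulus expansion, prostaglandins and EGF ligands 2 of 12 rose and 2 fell, and 2 rose and 5 fell without late_MGC 3. PTGES, a prostaglandin E synthase, stood at 161, 23.5, 39.1 and 104 CPM in secondary_GC and from 0.321 to 5.8 CPM in late_MGC, and fell by 4.29 and by 3.99. The proteases ADAM10 and ADAM17, which release EGF-like ligands, rose by 1.03 and 1.04, and by 0.99 and 1.01 without late_MGC 3. Of 15 targets and partners of YAP 3 fell and 1, ANKRD1, rose, and without late_MGC 3 6 fell and edgeR called 0 rises, with 0 higher at an unadjusted p under 0.05. NUAK2, a kinase of that list, fell by 3.25 and by 3.90.

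Marker lists of other cell types held more falls than rises, except for theca and, with all libraries, stroma. The lists are short, and among all tested genes 15.3% were called lower, and 18.4% without late_MGC 3. For endothelial and for epithelial markers 20% of tested genes fell with all libraries, near that share. The 5 tested endothelial markers held 1 fall, FLT1, which stood at 22.2 to 28.6 CPM in secondary_GC and at 0.75 to 3.32 CPM in late_MGC. The list of 10 with a row summed to between 28.6 and 37.4 CPM in secondary_GC and to between 2.09 and 6.10 CPM in 4 late libraries, with 26.3 CPM in late_MGC 3, and 2 of its genes had no count in late_MGC and 3 had none in secondary_GC. Smooth muscle and pericyte markers fell in 3 of 5 in both fits and summed to between 191 and 298 CPM in secondary_GC and to between 34.1 and 138 CPM in late_MGC. Leukocyte and blood markers fell in 2 of 5 and summed to at most 8.29 CPM in any of the 9 libraries. Of the 12 with a row 3 had no count in late_MGC and 5 had none in secondary_GC. The 8 theca markers with a row summed to between 93.1 and 358 CPM in secondary_GC, to between 219 and 370 CPM in 4 late libraries and to 39.3 CPM in late_MGC 3. Of the 5 tested NR2F2 rose, by 2.18 and by 2.21, and ANPEP fell, by 4.53 and by 4.59. Stroma markers rose in 3 of 12 and fell in 2, and rose in 2 and fell in 5 without late_MGC 3. Epithelial markers fell in 1 of 5, MSLN, and in 4 of 5 without late_MGC 3. The part of these cells in the changes of other genes was not tested.

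**Figure D4:**
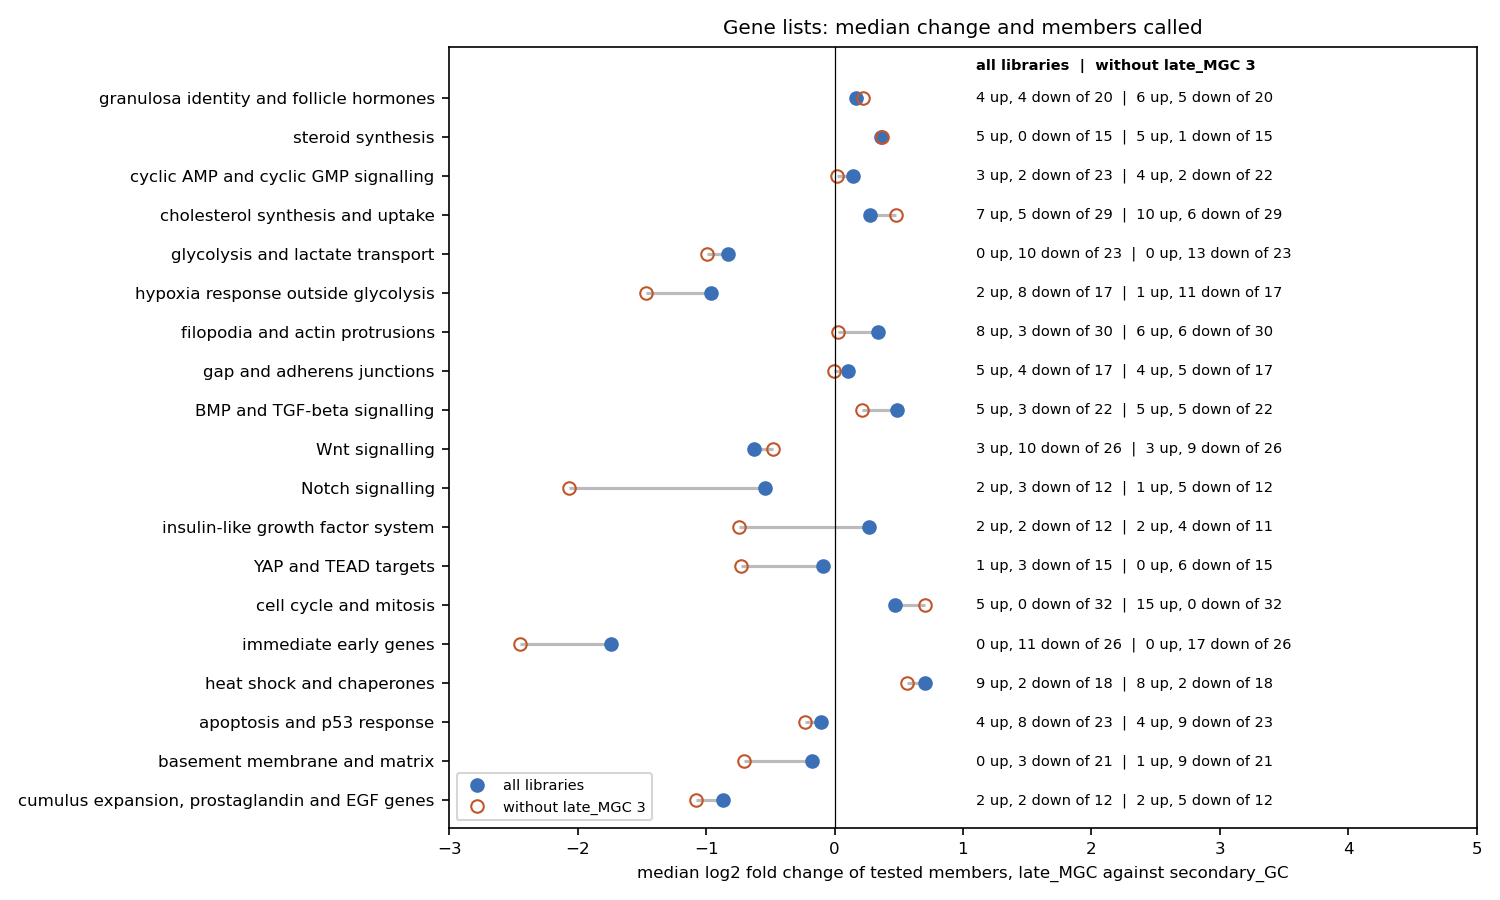
Median log2 fold change of the tested members of 19 gene lists, late_MGC against secondary_GC, with all libraries (filled) and without late_MGC 3 (open), with the number of members called in each direction. Glycolysis and immediate early genes hold 0 called rises in either fit, and cell cycle genes hold 5 called rises with all libraries and 15 without late_MGC 3. Among all tested genes 16.6% were called higher and 15.3% lower with all libraries, and 17.4% and 18.4% without late_MGC 3.

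By size alone, outside the lists, the rises called in both fits with a late_MGC median of at least 5 CPM were led by MEP1B, NPR3 and ITGA4. MEP1B, a metalloprotease, stood at 0 to 0.493 CPM in secondary_GC and at 14.2, 16, 20.9 and 17.3 CPM in late_MGC, with 0.321 CPM in late_MGC 3, a log2 change of 6.13 and of 6.47 without it. NPR3, the clearance receptor for natriuretic peptides, stood at 0.0987 to 0.2 CPM and at 5.32, 9.31, 7.93 and 8.21 CPM, with 1.87 CPM in late_MGC 3, a change of 5.77 and 6.02. KCNN1, a calcium-activated potassium channel, and NFIA, a transcription factor, rose by 5.15 and 5.29, and by 5.46 and 5.22 without late_MGC 3. GSTA5, of the glutathione transferases, stood at 5.50 to 14.5 CPM and at 443, 359, 403 and 470 CPM, with 8.20 CPM in late_MGC 3. GSTA5 rose by 5.39 and by 5.70 in the 2 fits. The histone gene H2AC13 rose by 5.10 and by 5.38; both it and GSTA5 have close copies in the genome, and reads may be split among them. POSTN, a matrix protein of stroma, rose by 4.85, and by 3.55 without late_MGC 3, where it stood at 588 CPM against 50.0 to 68.6 CPM.

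Among the deepest falls several genes had almost no late count. DPEP1, a dipeptidase, had 3113 counts over the 4 secondary_GC libraries and 3 over the 5 late_MGC libraries, a ratio of 1415 after division by the library totals (95% counting interval 484 to 6867). This interval covers counting error only, and since mates were mostly counted apart, it is narrower than one over fragments would be. EXOC3L1, a relative of an exocyst subunit, stood at 78.1, 79.0, 59.7 and 64.8 CPM in secondary_GC and from 0.242 to 1.14 CPM in late_MGC, with 0.268 CPM in late_MGC 3. EXOC3L1 fell by 6.97 (SE 0.48) and by 6.81 without late_MGC 3 (adjusted p = 8.1e-10 and 4.1e-10). BOLA-DQB1, a class II antigen-presentation gene, varied from 1.2 to 230 CPM within secondary_GC and stood at 0 to 0.383 CPM in late_MGC, and was not called by limma-voom (adjusted p = 0.28).

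Calls that rested on late_MGC 3 were named by size. CSRP3, a muscle LIM protein, stood at 1971 CPM in late_MGC 3 against 0.242 to 3.18 CPM in the other 4 and 1.52 to 4.53 CPM in secondary_GC. ANKRD1, a target of YAP, stood at 2029 CPM in late_MGC 3 against 0.363 to 2.94 CPM in the other 4. With all libraries their log2 changes were 7.18 and 8.31, and without late_MGC 3 they were -1.17 and -0.07 and not called. BMPER had no count in secondary_GC, 28.3 CPM in late_MGC 3 and at most 0.240 CPM in the other 4.

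The middle stage was tested as early_MGC against the mean of secondary_GC and late_MGC. Of 14298 genes 868 were called, 6.07%, with 549 higher (3.84%) and 319 lower (2.23%). Without late_MGC 3 the test called 1529 of 14103, 10.8%, with 913 higher (6.47%) and 616 lower (4.37%). Without early_MGC 4 or early_MGC 5 it called 467 and 526 genes. With a net log2 change within 0.5 were 124 of the higher and 162 of the lower genes. GREM1 stood at 16.6 to 22.5 CPM in secondary_GC, at 121, 103, 73.1, 42.8 and 95.9 CPM in early_MGC 1 to 5 and at 10.3 to 21.9 CPM in late_MGC. All 5 early_MGC libraries lay above both ends, with a log2 difference of 2.28 (SE 0.19, edgeR adjusted p = 1e-07), and 2.21 without late_MGC 3. TFR2, transferrin receptor 2, stood at 2.6 to 6.23 CPM, at 0.119 to 1.72 CPM and at 4.45 to 6.07 CPM in the 3 stages, a difference of -2.06 (adjusted p = 0.00064), and -2.09 without late_MGC 3. HES1, a Notch target, stood at 16.5 to 26.1 CPM, at 2.70 to 6.32 CPM and at 4.33 to 13.7 CPM in 4 late libraries, with 48.1 CPM in late_MGC 3. HES1 had a log2 difference of -1.82 from the mean of both ends, and -1.43 without late_MGC 3, and its net change was -0.07, or -0.86 (adjusted p = 0.034) without late_MGC 3.

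**Figure D5:**
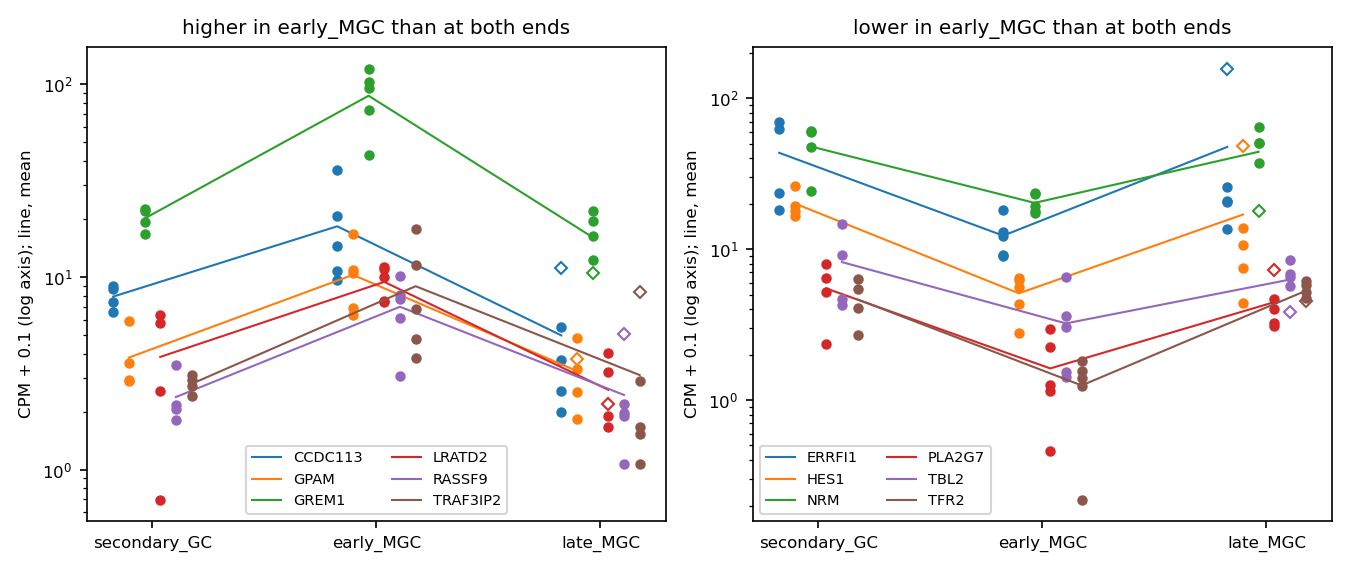
CPM plus 0.1 (log axis) in secondary_GC, early_MGC and late_MGC for 6 genes higher and 6 genes lower in early_MGC than the mean of both ends; points are libraries, open diamonds are late_MGC 3 and lines join the group means. GREM1 has the widest separation, with 42.8 to 121 CPM in early_MGC against at most 22.5 CPM at either end.

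Net change on the mural side was compared with that on the cumulus side through late_MGC against late_CC, since both start from the same secondary_GC libraries. Of 14298 genes 5673 were called, 39.7%, with 2969 higher (20.8%) and 2704 lower (18.9%) in late_MGC. Without late_MGC 3 the test called 5891 of 14103, 41.8%, with 2886 higher (20.5%) and 3005 lower (21.3%). GSTA5 averaged 15.1 ± 4.3 CPM in late_CC (SD, n = 5) and was higher in late_MGC by 4.71 on the log2 scale (edgeR adjusted p = 6.9e-05), and by 5.03 without late_MGC 3. MYO10 averaged 85.6 ± 13.9 CPM in late_CC and was lower in late_MGC (a log2 difference of -2.01, adjusted p = 1.5e-06, and -2.16 without late_MGC 3). INHBA averaged 7050.5 ± 4612 CPM in late_CC (SD, n = 5), a difference of -2.03 (adjusted p = 0.032), and -1.72 without late_MGC 3 (adjusted p = 0.04). In late_CC 3 INHBA stood at 191 CPM against 4890 to 11334 CPM in the other 4, and without that library the difference was -2.34 (adjusted p = 0.0035). For NKD1 the difference was 0.61 and was not called (adjusted p = 0.57), nor without late_MGC 3 (0.75, adjusted p = 0.5).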

How the data were processed

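RNA-seq counts per gene for 24 bovine granulosa libraries were used as deposited. Per the file headers, the authors counted reads per gene with featureCounts 2.0.0 on an Ensembl annotation, without options for paired fragments, strand or multimapping reads; the submitters' processing notes also name fastp 0.20.0, HISAT2 2.1.0 and SAMtools 1.10. Of counts from 1 to 10, 75.2% were even, so mates were mostly counted apart. Strand was not used, so overlapping and antisense genes cannot be told apart. 1 column of per-sample values was not used.

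Symbols were assigned by position against a RefSeq gene table of another build (reciprocal best overlap of at least 0.5 of the union): of the 12219 genes averaging 1 CPM or more, 88.4% got one. Counts were tested with edgeR 4.0.16 (TMM, filterByExpr, robust quasi-likelihood) in 1 fit of all 24 libraries; early_MGC, late_CC and the other groups share the spread estimate. Data for late_MGC against secondary_GC were simulated for 14298 genes, of which 100 changed 2-fold and 100 changed 4-fold. In these data 26% of 2-fold and 86% of 4-fold changes were recovered, with 5.88% false calls. Far fewer genes changed there than were called in the real data, so these rates need not hold for the real data. Alternatives were RLE scaling, no filter, a mean of at least 10 CPM, DESeq2 1.42.0, limma 3.58.1 voom with and without library weights, the groups alone, offsets corrected for exon length and leaving out each library; leaving out the 3 libraries that stand apart (late_MGC 3, late_CC 3 and early_MGC 4) and a block by the letter that ends each column header were added after seeing the data. No pair of libraries within a group agreed within sampling noise (the smallest chi-square was 17.4 times its degrees of freedom, in 46 pairs). Library totals ran from 8379801 to 31762400.

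Named genes were the 12 largest rises and falls called in both fits with a median of at least 5 CPM in the higher group, 20 fixed genes, up to 4 called members per list, the 6 largest rises and falls called with all libraries only, and 6 genes each highest or lowest in early_MGC; other list members were named after their values were seen. The members and lists were chosen with earlier results of these data known. Results on some genes that these rules name are not reported here.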

Additional observations from a re-analysis of the deposited data

Results flagged for a closer look

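For 51 of the 296 pairs of a named gene and a group, 1 library stood out by Dixon's test at the 95% level. It lay farther from its nearest neighbour, relative to the range of its group, than the test allows. A minimum of 5 CPM and of 0.5 in log2 range was set, so fewer than 296 pairs may have been open to the test. Chance alone gives about 1 in 20 of the pairs tested, and the number tested is not given here. In 43 of the 51 cases that library was late_MGC 3. It was the highest of late_MGC, in CPM, for LUM at 1621, BAMBI at 27.7, FSCN1 at 30.2, ACTR3 at 598, CLEC12B at 24.7, DAAM1 at 74, ERRFI1 at 157, F3 at 9.91, PDGFRA at 145, FRMD4B at 70.8, BMPER at 28.3, ANKRD1 at 2029, CSRP3 at 1971, POSTN at 588, MAP1LC3C at 369, JAG1 at 74.2, AGRN at 24.5, GJA4 at 11.5, MCL1 at 331, CDH1 at 181, TSPO at 276, IGFBP7 at 948 and STAR at 123. It was the lowest for MKI67 at 15.2, FST at 83, SOAT1 at 62.3, BTC at 1.39, BUB1B at 18.6, IGFBP4 at 1.29, KCNN1 at 4.12, ITGA4 at 1.93, INHA at 26.3, CA9 at 0.0536, CYP19A1 at 0.107, AMH at 2.73, CCND2 at 76.4, LSS at 11.4, TOP2A at 80.5, MEP1B at 0.321, HSPA1A at 45.6, FSHR at 10.6, GSTA5 at 8.2 and H2AC13 at 31.8. The named genes were not chosen independently of this library: 12 were chosen because they were called with it and not without it, and 6 of the 43 cases are among those, so the chance rate does not apply to this count. The marker sums of this library stand in the report, and the part of other cells in these values was not tested.

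The other 8 cases were spread over 5 libraries. SESN2 was the lowest of its group in late_MGC 4, at 3.19 CPM. NOTCH2 was the lowest of its group in late_MGC 1, at 6.88 CPM. NOBOX was the highest of its group in secondary_GC 2, at 8.5 CPM. HK2 was the lowest of its group in secondary_GC 3, at 6.23 CPM. SLC16A3 was the highest of its group in late_MGC 1, at 5.32 CPM. BNIP3 was the highest of its group in late_MGC 1, at 15.5 CPM. TOP2A was the lowest of its group in secondary_GC 4, at 180 CPM. HIF1A was the lowest of its group in secondary_GC 2, at 401 CPM.

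The net change from secondary follicles differed between mural and cumulus cells for 5673 genes by edgeR's test of the difference itself, which equals late_MGC against late_CC.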

How the results depend on the processing

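The labels do not tie libraries of different groups to each other. Column headers end in a letter from A to E of no stated meaning, and a replicate block by this letter, added after seeing the data, called 4761 genes against 4550, 1070 against 868 at the middle stage and 5837 against 5673 for late_MGC against late_CC. Deviations of same-letter libraries of secondary_GC and late_MGC correlated from -0.0053 to 0.17 in 4 pairs, and 2 of the 4 secondary_GC libraries correlated best with their own letter, so the letter was not taken as a pairing. For late_MGC against secondary_GC the count of 4550 (2369 higher, 2181 lower) became 2812 with the groups alone (1226 higher) and 2755 at a mean of at least 10 CPM, which tests fewer genes (1407 higher, 1348 lower). Leaving out each library gave 3743 to 5040 (1913 to 2449 higher, 1830 to 2591 lower). For early_MGC against the mean of both ends 868 (549 higher, 319 lower) became 1400 with DESeq2 (612 lower), 486 with the groups alone (113 lower), 1908 with voom and library weights (1185 higher, 723 lower), 575 at 10 CPM (206 lower) and 1446 without the 3 libraries that stand apart (899 higher, 547 lower). Leaving out each library gave 467 to 1529 (339 to 913 higher, 128 to 616 lower). For late_MGC against late_CC, 2969 higher became 1923 at 10 CPM, and leaving out each library gave 4856 to 5891. The cause of the changes other than fewer genes or samples was not tested.

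Without late_MGC 3, and without the 3 libraries that stand apart, log2 changes of genes called with all libraries turned sign for ANKRD1 (-0.072 and -0.073), CSRP3 (-1.17 in both), FRMD4B (-0.23 in both), JAG1 (-1.61 in both) and LUM (-0.20 in both). Over all single omissions these 5 ranged from -0.072 to 9.38, -1.17 to 7.51, -0.23 to 7.35, -1.61 to 4.83 and -0.20 to 4.69. With voom JAG1 gave -0.019. With voom and library weights CSRP3 gave -1.17, JAG1 -1.77 and LUM -0.66. RLE scaling moved the share of higher calls from 52.1% to 45.6%. Of 3 classes by length, in the longest 1009 were called higher and 635 lower, against 673 and 716 in the shortest; with offsets corrected for length 2 named calls were lost. Counts of 2-fold changes are limited by depth and spread. The recovery of 26% is from simulated data with far fewer changed genes, and recovery in the real data was not measured.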
